A study of Ogataea polymorpha NCYC 495 leu1.1 with 8 samples.

Results

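Hansenula polymorpha is a yeast that can live on methanol as its only carbon source. The 6 genes described here code for enzymes that remove reactive oxygen species or keep protein thiols and glutathione reduced in its cytosol and mitochondria. They are Hp37g167 (SOD1), Hp5g492 (TSA1), Hp19g287 (GPX3), Hp26g249 (TRR1), Hp15g1016 (GTO2) and Hp15g96 (GRX5). They were taken by their probe identifiers from the 5999 gene probes of the array, and each of them was found. The study singled out these genes because their transcripts rose in these samples, so that the direction and the number of calls below are a description of these data and no independent evidence.

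When methanol is oxidised by alcohol oxidase in peroxisomes, hydrogen peroxide is formed, and most of it is broken down there by catalase. Outside peroxisomes, superoxide is converted to hydrogen peroxide by superoxide dismutase, and peroxides are reduced by enzymes with a reactive cysteine. These draw their electrons from thioredoxin, which is recharged by thioredoxin reductase and NADPH, or from glutathione. The roles given here for the single genes are those known from Saccharomyces cerevisiae, and the gene names are those of the study.

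Cells of the leucine-auxotrophic strain NCYC 495 leu1.1, which all samples share, were grown on glucose at 37 °C in 4 independent cultures. At an optical density of 2.3 RNA was taken as the glucose sample, and cells were moved to fresh mineral medium with 0.5% methanol at a density of 0.2, from which the methanol sample was taken after 2 hours. Both RNAs of a culture were compared on 2 arrays, one with glucose in the dye Cy5 and methanol in Cy3 and one with the dyes exchanged, which makes 8 arrays. Carbon source, fresh medium and cell density changed together between the samples, so that their parts in any difference cannot be told apart, and a transcript's level per cell cannot be told apart from the make-up of the population.

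In each channel, 90.6% to 98.3% of the gene spots were well above background, and 0 to 44 gene spots per array were flagged as outliers and left out. The dye-swapped arrays of a culture correlated across genes with r of 0.982 to 0.985 in their log2 ratios, and different cultures with r of 0.894 to 0.978 (genes are no independent replicates). Culture 1 stood furthest from the others, with r of 0.894 to 0.934. Each gene had 2 spots per array and thus 16 spots in all. All 16 spots of each of the 6 genes were above background in both conditions, and 0 were flagged as outliers or saturated. All 16 spot ratios of each gene exceeded 2-fold, and the share of all genes that did so is not given here.

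Each of the 6 genes was upregulated after 2 hours on methanol. Upregulated here means a fold change above 2, an adjusted p below 0.05 by limma with Benjamini-Hochberg adjustment over 5999 genes, and a mean log2 signal of both dyes (A-value) of at least 6. Of all genes, 19.1% were called upregulated by this rule and 21.4% downregulated (fold change below 0.5). All 6 genes were also over 2-fold up in each of the 4 cultures. Of all 5999 genes, 14.1% were called upregulated and were over 2-fold up in each culture. For each of the 6 genes, and for 20.0% of all genes, the lowest methanol level lay above the highest glucose level. The level was here the processed signal (the intensity given for each dye), not divided by the median signal of the gene probes in that channel. The median log2 ratio of methanol over glucose was 2.48 over the 6 genes, a 5.60-fold change, and 0.04 over all genes.

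**Figure D1:**
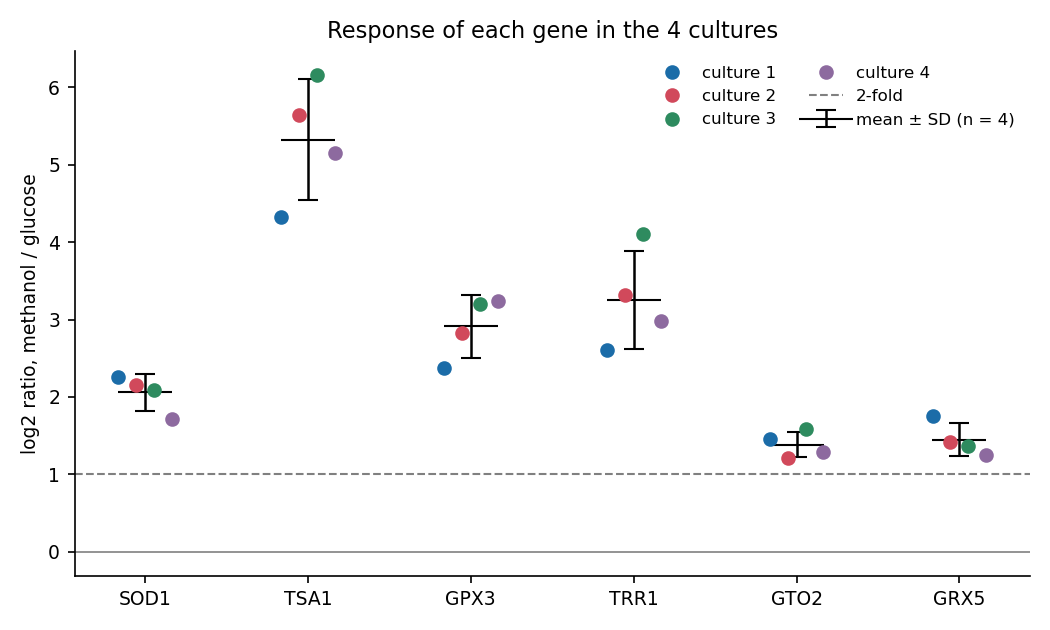
Log2 ratio of the methanol over the glucose signal (vertical axis) for each of the 6 genes, with 1 point per culture (mean of 2 dye-swapped arrays), the mean as a horizontal line and the SD over 4 cultures as the error bar. All 24 points lie above the dashed line at 2-fold, with TSA1 highest and GTO2 and GRX5 lowest.

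SOD1 codes for the cytosolic copper- and zinc-containing superoxide dismutase, which turns superoxide into hydrogen peroxide and oxygen. Its processed signal on glucose was 44377, 29112, 27458 and 43156 in cultures 1 to 4. On methanol it was 212731, 130055, 116941 and 142166. The 4 methanol values all lay above the 4 glucose values, and the lowest of them was 2.64 times the highest on glucose. The log2 ratios of the cultures were 2.26, 2.16, 2.09 and 1.72, with a mean of 2.06 ± 0.24 (SD, n = 4), which is a 4.16-fold increase (95% interval of the log2 ratio 1.76 to 2.36, adjusted p = 3.42e-05, limma). Relative to the median of its channel, SOD1 on glucose was nearly the same in all cultures, at 14.2 to 16.2 times the median. On methanol it stood at 71.7, 65.4 and 70.7 times the median in cultures 1 to 3 and at 50 times in culture 4, which also had the lowest ratio. SOD1 ranked 452 of 5999 by its mean ratio.

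TSA1 codes for a thioredoxin peroxidase, the abundant cytosolic peroxiredoxin that reduces hydrogen peroxide with electrons from thioredoxin. It had the largest rise of the 6 genes. Its processed signal on glucose was 10957, 3744, 3494 and 6450 in cultures 1 to 4, and on methanol 220342, 186837, 250528 and 228688. The glucose values spread 3.14-fold among cultures and the methanol values 1.34-fold, with the lowest methanol value 17.1 times the highest glucose value. The log2 ratios were 4.33, 5.64, 6.16 and 5.15, or 20.1-, 49.9-, 71.7- and 35.5-fold. Their mean was 5.32 ± 0.78 (SD, n = 4), a 40.0-fold increase (95% interval 4.60 to 6.05, adjusted p = 2.73e-05, limma), and 46 genes had a higher mean ratio. The spread among cultures was wide for a gene on this array, since 94.5% of all genes had a smaller SD, and the median SD over all genes was 0.26. Culture 1, with the lowest ratio, had the highest level on glucose also relative to the channel median (3.58 times the median, against 1.83, 2.06 and 2.18 in cultures 2 to 4). Culture 3, with the highest ratio, had the highest level on methanol (151 times the median, against 74.3, 93.9 and 80.4 in cultures 1, 2 and 4).

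GPX3 is the name used for Hp19g287. The study lists it as a glutathione reductase, but the closest sequence match given in its annotation is HYR1, a peroxidase of the glutathione peroxidase family, which in S. cerevisiae reduces peroxides with a reactive cysteine and senses hydrogen peroxide for the transcription factor Yap1. The processed signal was 27494, 15938, 13831 and 17233 on glucose in cultures 1 to 4, and 142119, 113428, 127643 and 162833 on methanol. Again no methanol value reached down to a glucose value, with a gap of 4.13-fold between the lowest and the highest. The log2 ratios were 2.37, 2.83, 3.21 and 3.24, with a mean of 2.91 ± 0.41 (SD, n = 4), a 7.53-fold increase (95% interval 2.49 to 3.33, adjusted p = 3.24e-05, limma). GPX3 ranked 259 of 5999 by its mean ratio. Relative to the channel median, the level on glucose was 8.98, 7.80, 8.17 and 5.82 times the median, lowest in culture 4. The level on methanol was 47.9, 57, 77.2 and 57.2 times the median, lowest in culture 1 and highest in culture 3.

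TRR1 codes for thioredoxin reductase, the flavoenzyme that passes electrons from NADPH to thioredoxin. Its processed signal was 12273, 7673, 7136 and 10765 on glucose and 74816, 76433, 122923 and 84945 on methanol in cultures 1 to 4. Culture 3 stood out on methanol, and the lowest methanol value was 6.10 times the highest glucose value. The log2 ratios were 2.61, 3.32, 4.11 and 2.98, or 6.10-, 9.96-, 17.2- and 7.89-fold. The mean was 3.25 ± 0.64 (SD, n = 4), a 9.53-fold increase (95% interval 2.65 to 3.86, adjusted p = 8.01e-05, limma), at rank 206. In processed signal, TRR1 spread 1.72-fold among cultures on glucose and 1.64-fold on methanol. Relative to the channel median, its spread was larger on methanol. On glucose TRR1 was at 3.64 to 4.21 times the channel median in all cultures (SD of the log2 level 0.10), whereas on methanol it was at 25.2, 38.4, 74.3 and 29.9 times the median (SD 0.68). For TSA1 the same SDs were similar in both conditions, 0.43 on glucose and 0.46 on methanol.

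**Figure D2:**
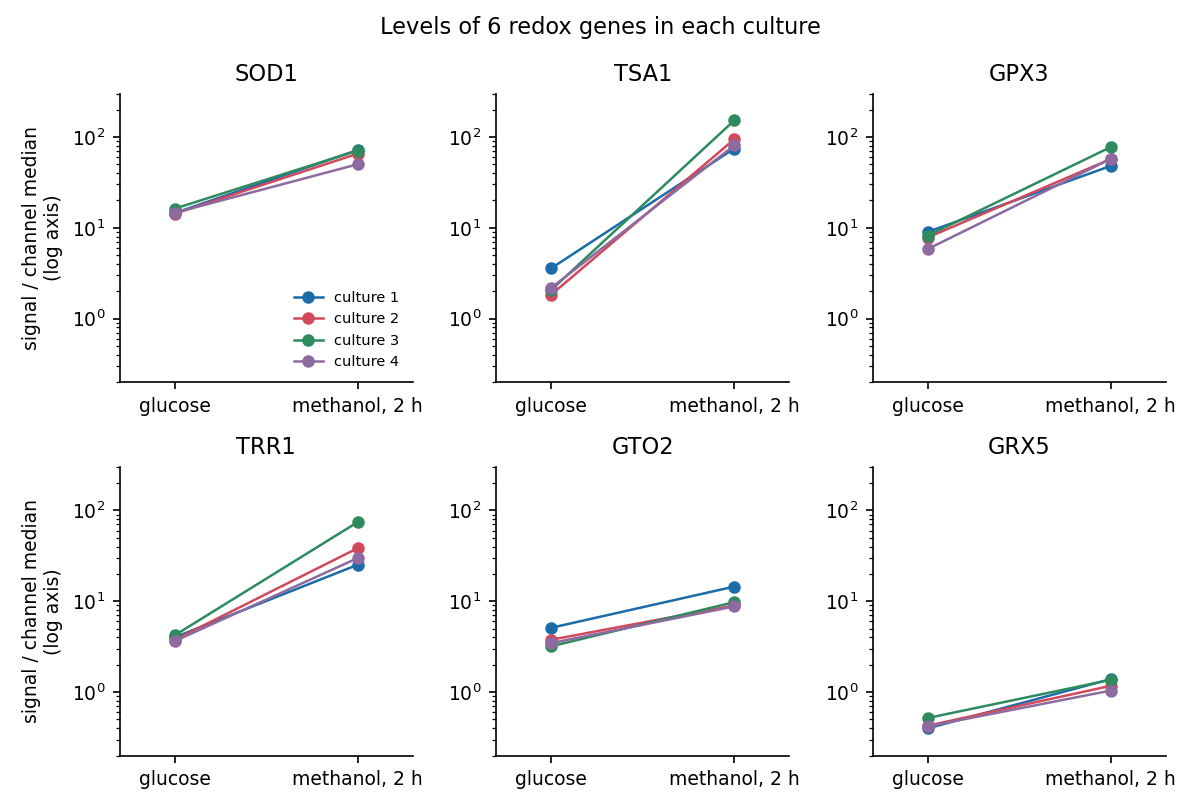
Signal of each gene over the median signal of the gene probes in its channel (log axis) on glucose and after 2 h on methanol, with 1 line per culture (mean of 2 arrays). All lines rise, and the glucose points of SOD1 and TRR1 lie almost on top of each other while their methanol points, above all that of culture 3 for TRR1, lie apart. Heights are not comparable between genes, since probes differ in their brightness.

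GTO2 codes for a glutathione transferase of the omega class, which acts on thiols with glutathione as partner. Its processed signal was 15623, 7698, 5407 and 10240 on glucose and 42992, 17902, 16163 and 24949 on methanol. Both conditions varied strongly in absolute signal, 2.89-fold on glucose and 2.66-fold on methanol, so that the lowest methanol value (culture 3) was only 1.03 times the highest glucose value (culture 1). Within a culture the change was even, with log2 ratios of 1.46, 1.22, 1.58 and 1.28. The mean was 1.39 ± 0.17 (SD, n = 4), a 2.61-fold increase (95% interval 1.12 to 1.65, adjusted p = 8.37e-05, limma). Scaled to the channel median, the levels were 5.10, 3.77, 3.19 and 3.46 on glucose and 14.5, 9.0, 9.77 and 8.77 on methanol, and the gap between the conditions was 1.72-fold. Culture 1 was the highest in both conditions.

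GRX5 codes for a monothiol glutaredoxin of mitochondria that takes part in the assembly of iron-sulfur clusters. Its processed signal was 1222, 872 (culture 2), 879 and 1242 on glucose and 4125, 2332, 2259 and 2960 on methanol. The log2 ratios were 1.75, 1.42, 1.36 and 1.25, with a mean of 1.45 ± 0.22 (SD, n = 4), a 2.73-fold increase (95% interval 1.16 to 1.74, adjusted p = 1.04e-04, limma). The lowest methanol value was 1.82 times the highest glucose value, and 2.01 times after scaling to the channel median. On that scale the GRX5 signal was 0.40, 0.43, 0.52 and 0.42 on glucose and 1.39, 1.17, 1.37 and 1.04 on methanol in cultures 1 to 4. GRX5 and GTO2 ranked 775 and 832 by mean ratio, so that 87.1% and 86.1% of all genes had a lower ratio.

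**Figure D3:**
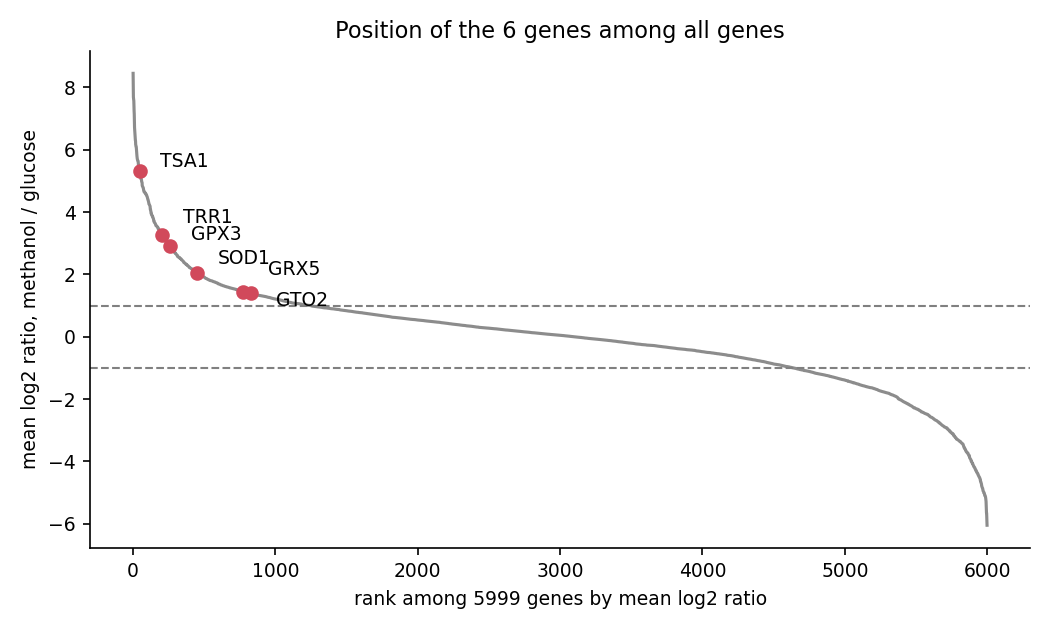
Mean log2 ratio of methanol over glucose for all 5999 genes, ordered by rank (grey line), with the 6 genes as red points and dashed lines at 2-fold up and down. TSA1, TRR1 and GPX3 lie on the steep left end of the curve, at ranks 47, 206 and 259, and SOD1, GRX5 and GTO2 further down.

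The sizes of the changes were compared within cultures for 4 pairs of genes chosen by role. An exact two-sided sign-flip test over 4 cultures cannot give a p below 0.125, so that none of these differences could pass a threshold of 0.05. TSA1 rose more than TRR1, the reductase at the head of its electron supply, in 4 of 4 cultures, with a difference in log2 ratio of 2.07 ± 0.26 (SD, n = 4, range 1.72 to 2.32, exact p = 0.125, adjusted p = 0.167 over the 4 pairs). With both dye orientations averaged, the rise of TSA1 was thus 4.19 times that of TRR1. This factor varied less among cultures than either gene's own ratio, but it changed with the dyes. The log2 difference between TSA1 and TRR1 was 1.67 when Cy5 marked the glucose RNA and 2.46 when it marked the methanol RNA. Both values lay outside the range of the cultures, and the cause was not tested. Against GPX3, the other thiol peroxidase, the difference was 2.41 ± 0.55 (SD, n = 4, range 1.91 to 2.96, exact p = 0.125, adjusted p = 0.167), again positive in 4 of 4 cultures. SOD1 rose less than TSA1 in 4 of 4 cultures, with a log2 difference of -3.26 ± 0.85 (SD, n = 4, range -4.07 to -2.07, exact p = 0.125, adjusted p = 0.167). GRX5 and GTO2 had no common order. Their difference was 0.06 ± 0.23 (SD, n = 4, range -0.22 to 0.29, exact p = 0.75, adjusted p = 0.75) and positive in 2 of 4 cultures.

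The cultures did not rank alike for the 6 genes. TSA1 and TRR1 had their highest ratio in culture 3, followed by cultures 2, 4 and 1. SOD1 and GRX5 were highest in culture 1 and lowest in culture 4. GPX3 ran the other way, with culture 4 highest and culture 1 lowest, although its ratios in cultures 3 and 4 (3.21 and 3.24) were almost equal. GTO2 was highest in culture 3 and lowest in culture 2. With 4 cultures no correlation was computed.

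The size of the rise depended on the dye orientation for some of the genes. TSA1 was 29.2-fold up where glucose carried Cy5 (4 arrays) and 54.7-fold up where methanol carried it (4 arrays), a difference in log2 ratio of 0.91. Of all genes, 98.6% had a smaller difference in size, and the median size over all genes was 0.13. GPX3 was 5.83-fold up with glucose in Cy5 and 9.72-fold up with methanol in Cy5 (difference 0.74), and SOD1 was 3.55-fold and 4.88-fold up (difference 0.46). For TRR1 the orientations gave 9.14-fold and 9.94-fold, for GTO2 2.68-fold and 2.55-fold, and for GRX5 2.74-fold and 2.71-fold. Each of the 6 genes was above 2-fold in both orientations of every culture, and the share of all genes that did so is not given here.

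**Figure D4:**
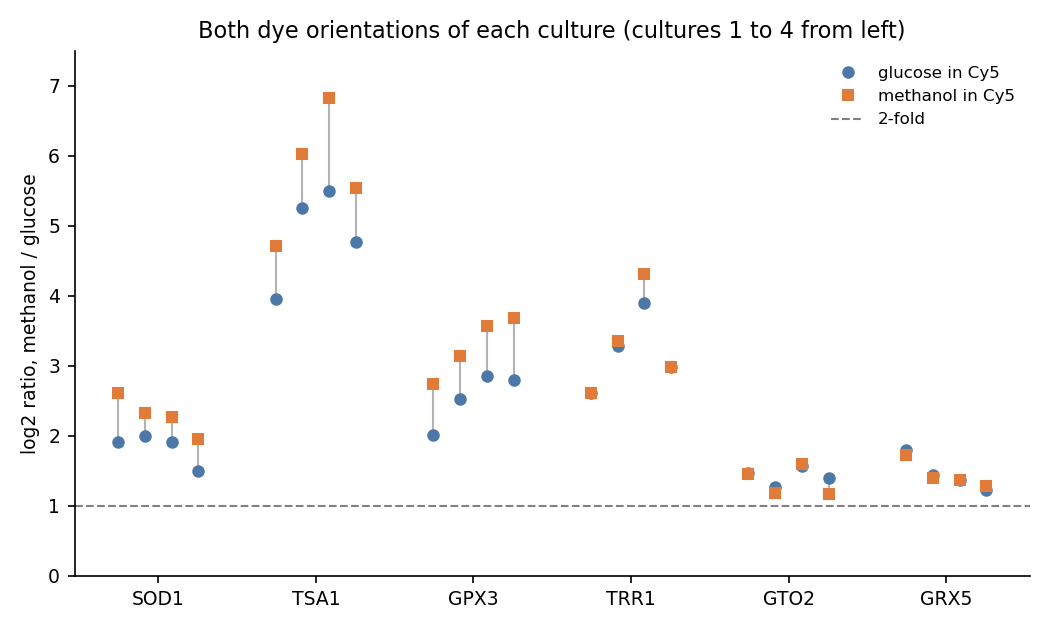
Log2 ratio of methanol over glucose on each of the 8 arrays, with the arrays that hold glucose in Cy5 as circles and those that hold methanol in Cy5 as squares, and a grey line joining the 2 arrays of a culture (cultures 1 to 4 from left to right within each gene). The squares lie above the circles in all 4 cultures for SOD1, TSA1 and GPX3, while the 2 symbols nearly coincide for most cultures of TRR1, GTO2 and GRX5.

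Set against the channel median, the same glucose RNA read higher in Cy5 than in Cy3, by 1.32 ± 0.56 (SD, n = 4 cultures) on the log2 scale for TSA1, 0.84 for GPX3 and 0.56 for SOD1. The methanol RNA of these genes read -0.40, -0.08 and -0.08 higher in Cy5, that is slightly lower. For TRR1 the glucose RNA read 0.38 higher in Cy5 and the methanol RNA differed by -0.24, so that both offsets largely cancelled in its ratio. For GTO2 the values were 0.08 on glucose and -0.14 on methanol, and for GRX5 -0.04 and 0.04. For bright spots the image analysis software (Feature Extraction) can take the signal from a second scan at lower gain and scale it up, and it flags the spots where it did so. This applied to 16 of 16 methanol spots of SOD1, TSA1, GPX3 and TRR1, to 13 of 16 of GTO2 and to 0 of 16 of GRX5. On glucose it applied to 16 spots of SOD1, 8 of GPX3, 6 of GTO2, 5 of TRR1, 4 of TSA1 and 0 of GRX5. Over all gene spots the shares were 16.1% on glucose and 10.9% on methanol. The ratio of GRX5 thus held no signal from the low-gain scan. The part of the low-gain scan and of the dyes in the sizes of the ratios was not tested.

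Beyond the 6 genes, 13 genes with antioxidant or thiol redox functions were taken by their annotation from the part of the study's gene table that was at hand. That part holds the genes with the highest ratios, so that genes that fell could hardly enter it, and the counts are a description only. Of the 13, 7 were upregulated by the rule above (19.1% of all genes were), 0 were downregulated, and 6 did not pass the rule. Their median log2 ratio was 1.05.

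Hp27g292 (CAT), the peroxisomal catalase, had log2 ratios of 5.59, 5.20, 5.71 and 4.83 in cultures 1 to 4, with a mean of 5.33 ± 0.40 (SD, n = 4), a 40.3-fold increase (adjusted p = 5.50e-06, limma). Its rise was about as large as that of TSA1 and ranked next to it, at 46 against 47. Hp47g296 (PMP20), the peroxiredoxin of peroxisomes, had ratios of 5.0, 1.25, 2.5 and 1.88, with a mean of 2.66 ± 1.64 (SD, n = 4), or 6.31-fold (adjusted p = 0.00769, limma), and culture 1 lay far above the others. Without culture 1 the mean of PMP20 was 1.88, or 3.67-fold (adjusted p = 5.30e-04, limma). In culture 1 the order of the 2 peroxiredoxins TSA1 and PMP20 was the reverse of that in the other cultures, with log2 ratios of 4.33 and 5.0. The PMP20-like gene Hp47g996 had a mean ratio of 1.28 ± 0.28, and its lowest value, 0.87, was that of culture 1.

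Among the enzymes that use cytochrome c or glutathione, the cytochrome-c peroxidase homologs Hp6g291 and Hp47g69 had log2 ratios of 2.14 ± 0.14 and 1.43 ± 0.29 (SD, n = 4). Hp47g1055, a theta class glutathione S-transferase homolog, had 1.47 ± 0.21, close to the value of GTO2. Hp15g102, a homolog of the oxidative stress regulator SKN7, was just over the limit with 1.05 ± 0.22, and exceeded 2-fold in cultures 1 and 3 but not in cultures 2 and 4. Without culture 1 it was at 0.94 and no longer passed the fold limit.

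Of the 13 genes, the thioredoxin and glutaredoxin homologs had mean ratios below 2-fold. They code for small thiol proteins that the enzymes TRR1, TSA1 and GRX5 work with or resemble. The thioredoxin homolog Hp19g10 had a log2 ratio of 0.78 ± 0.05 (SD, n = 4), or 1.72-fold, and the thioredoxin homolog Hp39g133 had 0.71 ± 0.51 with a value close to 0 in culture 1. The glutaredoxin homolog Hp24g317 had 0.84 ± 0.18, or 1.79-fold. Of the genes of glutathione turnover, Hp32g222 (GSH, gamma-glutamylcysteine synthetase), which makes the first step of glutathione synthesis, had 0.58 ± 0.21, and the gamma-glutamyltransferase homolog Hp6g207 had 0.74 ± 0.71 with a value of -0.14 in culture 1. Without culture 1 Hp6g207 was at 1.04 (adjusted p = 0.00312, limma) and passed the rule. Over the 4 cultures, the adjusted p for these 5 genes by limma was below 0.05, with the highest, 0.0460, for Hp6g207. That of Hp6g207 was above 0.05 without culture 2, 3 or 4 (0.0972, 0.151 and 0.137, limma) and under normexp, centring on the median, Feature Extraction log ratios or the arrays with methanol in Cy5 alone (0.0519 to 0.0711), and that of Hp39g133 without culture 2, 3 or 4 (0.0720, 0.0791 and 0.0688). In cultures 1 and 2 alone the adjusted p was 0.539 for Hp6g207 (log2 ratio 0.19) and 0.283 for Hp39g133 (log2 ratio 0.36, limma). In cultures 3 and 4 alone it was 0.00327 and 0.00260 (limma). Taken as unpaired groups, without the replicate block, all 5 genes were above 0.05 (0.0575 to 0.207, limma). In the unpaired fit on levels over the channel median, added after the data were seen, all 5 genes were below 0.05 (6.7e-05 to 0.0228, limma). The difference between them and the 6 genes was not tested. Hp47g598, related to superoxide dismutase, had an A-value of 3.45 and was above background in 3 of 16 glucose and 6 of 16 methanol spots, so that its log2 ratio of 0.62 is that of a dim probe.

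**Figure D5:**
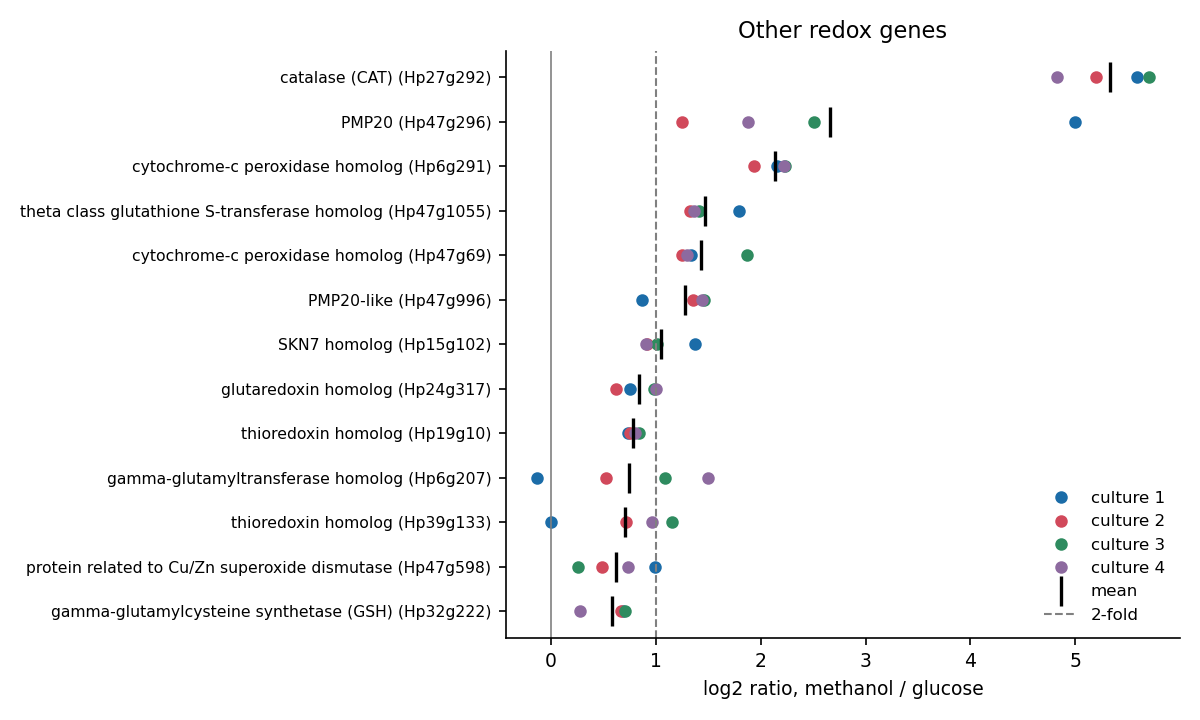
Log2 ratio of methanol over glucose in each culture (points) and mean (black bar) for the 13 other redox genes, ordered by the mean, with the dashed line at 2-fold. Catalase stands apart at the top, PMP20 has the widest spread among cultures, and the thioredoxin and glutaredoxin homologs have means between 0.71 and 0.84.

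For each of the 6 genes the gene with the most similar ratios over the 4 cultures was sought among 5477 genes with an A-value of at least 6, by the root mean square difference in log2 ratio. The closest were Hp1g282 to GTO2 (0.03), Hp29g326 to GRX5 (0.05), Hp18g37 to GPX3 (0.13), Hp47g958 to SOD1 (0.15), Hp47g564 to TRR1 (0.27) and Hp27g541 to TSA1 (0.35). None of these 6 genes belonged to the 13 other redox genes or to the 6 genes themselves.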

How the data were processed

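Total RNA of glucose-grown and methanol-shifted cells of 4 cultures was labelled with Cy3 or Cy5 and hybridised to dye-swapped arrays. The authors extracted the images with Feature Extraction 9.5, without background subtraction but with spatial detrending and dye normalization, and deposited an intensity for each spot and dye (the processed signal) together with flags for outlier, saturated, background-level and low-gain spots. They also deposited log10 ratios of both dyes, in the array files and in a table of the series. In that table the values stood 5 positions away from their identifiers. Shifted by 5 positions they equalled the log ratios of Feature Extraction (largest difference 0), and they were used so, as an alternative. Columns of the study's own comparisons (average ratios and p-values) were not used.

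From the processed signals, log2 of methanol over glucose was taken for each spot without outlier flag, averaged over the 2 spots of an array and the 2 arrays of a culture (n = 4 cultures), and fitted with an intercept in limma 3.58.1 (R 4.3.3, package data.table at version 1.17.8, statmod 1.5.0), with p-values adjusted by Benjamini-Hochberg over all 5999 genes. The script was tested on simulated data. These arrays have no read depth, and their number limits the precision. Levels by culture are geometric means of the processed signal, or were divided by the median of the gene probes of their channel. Figures were drawn with Python 3.11.15, numpy 2.4.6, pandas 2.3.3 and matplotlib 3.10.9.

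The genes named are the 6 genes, the 13 other redox genes selected by annotation words and the nearest gene to each of the 6. These genes, the lists and the pairs were chosen with earlier results of these data known. Gene identifiers did not occur in the reference annotation at hand, so that positions and sequences are not given. The study describes both RNAs of an array as coming from the same culture, which pairs them. The departures of both channels from the mean of their condition correlated across genes with 0.247, 0.380, 0.453 and 0.302 in cultures 1 to 4, but both channels also share their arrays. The choices varied were the background correction (normexp, offset 50, followed by loess), median centring, the log ratios of Feature Extraction and of the table, averaging without logarithm, either dye orientation, other spot, background and A-value filters, trended moderation, treat, the methods' Cyber-T test, the row of the array on the slide, no pairing, and each culture left out in turn.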

Additional observations from a re-analysis of the deposited data

How the results depend on the processing

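All 6 genes stayed upregulated under each of the 24 alternatives run for them. Not all of these were separate tests, since the log ratios of the table repeated those of Feature Extraction. The spot, background and A-value filters could not change the ratios of the 6 genes either. These genes had 0 outlier or saturated spots, all spots above background and A-values of 10.7 to 16.1. Their log2 ratios ranged from 1.83 to 2.29 for SOD1, 4.87 to 5.77 for TSA1, 2.54 to 3.28 for GPX3, 2.96 to 3.54 for TRR1, 1.32 to 1.44 for GTO2 and 1.31 to 1.59 for GRX5. Without the replicate block, that is with glucose and methanol as unpaired groups, the log2 ratio of TSA1 was again 5.32 and 1149 genes were upregulated, and the block changed no call of the 6 genes. The unpaired fit on levels over the channel median, added after the data were seen, called 1195. With treat against 2-fold, 760 genes in place of 1145 and 4 of the 13 other redox genes in place of 7 were upregulated, since treat tests for a rise beyond 2-fold. PMP20 (Hp47g296), Hp47g996 and Hp15g102 lost the call. Hp15g102 also lost it on the arrays with methanol in Cy5 (0.96), in cultures 3 and 4 alone (0.96) and without culture 1 (0.94), and in cultures 3 and 4 alone Hp39g133 (1.06) and Hp6g207 (1.29) gained it; the cause was not tested. The difference GRX5 minus GTO2 turned to -0.12 in cultures 3 and 4, the second row of arrays, and lay between -0.016 and 0.15 with each culture left out, negative without culture 1; the cause was not tested. All arrays lay on 1 slide. Loss of one culture moved the count of upregulated genes to between 1108 and 1170.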
